A study of Mus musculus with 16 samples.

Results

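The comparison described here is that of NELF-B KO with WT macrophages without any stimulus, and it rests on 4 of the 16 RNA-seq libraries of the series. The cells were bone marrow-derived macrophages (BMDM), grown in culture from the marrow of male C57BL/6 mice that the labels give as 8 weeks old. WT mice were LysM-Cre:NELF-B wt/wt and KO mice were LysM-Cre:NELF-B fl/fl, so Cre recombinase, expressed from the lysozyme M (Lyz2) locus of myeloid cells, was present in both genotypes. Untreated libraries came from 2 WT and 2 KO mice, which are called WT A, WT B, KO A and KO B. The other 12 libraries, used here only to see whether a difference recurred, were from cells stimulated for 1 hr, 6 of them with 10 ng/ml LPS and 6 with LPS and 100 nM dexamethasone (LPS + Dex), each with 3 libraries of either genotype. They came from the same 4 mice and from 1 further mouse of each genotype, WT C and KO C, which share no library with the untreated comparison. Mice with the same letter form a pair: those of pair B and of pair C share a printed date or run on some of their libraries, and those of pair A are the remaining mice. Members were chosen by genotype and treatment alone, and all 9614 genes of the deposited table were compared.

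NELF (negative elongation factor) holds RNA polymerase II shortly after it has started transcription, together with DSIF. Phosphorylation by P-TEFb releases the polymerase into the gene body. In resting macrophages many genes of the inflammatory and immediate-early response carry such a paused polymerase, so that they can be switched on within minutes of a stimulus. NELF-B, encoded by Nelfb, is a subunit on which the assembly of the complex depends. The untreated comparison asks what its loss changes before any stimulus is given.

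Values are log2 CPM (read counts scaled to the size of each library, on a log2 scale), so that a difference of 1 is a doubling. Differences are KO minus WT, with the standard error (SE) from limma, and a gene was called past an adjusted p of 0.05 and 1.5-fold. The 4 libraries held 25000000 to 38500000 reads, and WT A stood apart. Its correlation with the other 15 libraries across genes was 0.83 to 0.909, whereas that of WT B with KO B was 0.992 and with KO A 0.972. Genes were sorted into 5 classes of equal size by the length of their longest annotated transcript. The median difference between WT A and WT B ran from 0.82 in the class of the shortest transcripts (median 1486 nt) to -0.76 in that of the longest (median 6816 nt). The same medians for KO A and KO B against WT B ran from 0.07 to -0.05 and from 0.07 to -0.06. Hence each difference is given against both WT libraries and against WT B alone, and a difference is called held when it passed the same thresholds in a fit without WT A.

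**Figure D1:**
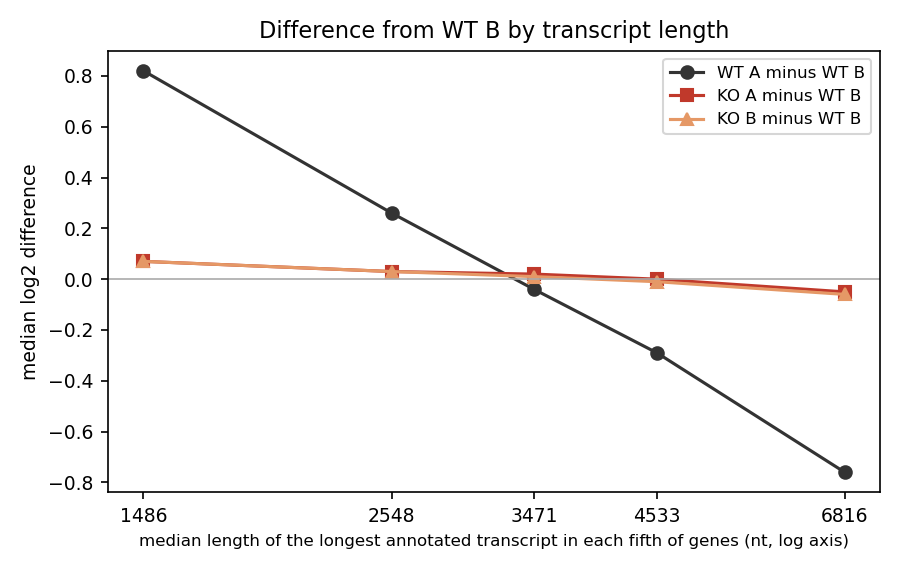
Median log2 difference from WT B (vertical axis) in 5 classes of genes, placed at the median length of their longest annotated transcript (nt, log axis), for WT A, KO A and KO B. The line of WT A falls from 0.82 to -0.76 with length, while those of KO A and KO B lie between 0.07 and -0.06.

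The targeted gene was examined first. Nelfb (ENSMUSG00000013465.19, chr2:25199712-25211489, minus strand, GRCm38) was at 6.21 in WT A, 5.92 in WT B, 3.53 in KO A and 4.38 in KO B. Both KO libraries were below both WT libraries, and the KO mean was 24.1% of the WT mean on the CPM scale (17.2% in KO A and 31.0% in KO B). The difference of -2.11 ± 0.34 (SE) had an adjusted p of 0.106 in the fit of all 16 libraries (limma). It passed with the mouse pair as a replicate block (adjusted p = 0.032) and with the mouse as a random effect (adjusted p = 0.00459). In every treated KO library Nelfb lay between 3.27 and 4.22, against 5.59 to 5.76 in the treated WT libraries. Exon 4 is shown because the paper states that it was floxed. No coordinates were given, so exon 4 of the principal GENCODE transcript was assumed to be that exon. It is 231 nt long, entirely coding, a multiple of 3 and 8.76% of the transcript. A count over the whole gene therefore cannot by itself show its loss.

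Nelfb exon 4 (chr2:25209854-25210084, minus strand, GRCm38): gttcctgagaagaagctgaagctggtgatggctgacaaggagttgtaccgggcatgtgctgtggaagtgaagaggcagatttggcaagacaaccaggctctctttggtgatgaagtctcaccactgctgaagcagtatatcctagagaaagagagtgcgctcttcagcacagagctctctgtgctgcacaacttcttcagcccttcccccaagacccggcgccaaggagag

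Only 1 gene passed the thresholds over both WT libraries, which was 0.0104% of the 9614 tested. It is 4933433C11Rik (ENSMUSG00000036770.11, Stpg3 in GENCODE), at chr2:25212207-25214637 on the minus strand. Its end lies 717 nt from the start of Nelfb on the same strand, and its function is not known from the sources used here. It had 1 read in WT A, 0 in WT B, 112 in KO A and 206 in KO B, or -3.77, -5.15, 1.52 and 2.55 log2 CPM. WT libraries were thus at the floor of the table and KO libraries at 2.85 and 5.81 CPM. Adjusted for depth, the 318 reads of KO against the 1 of WT gave a ratio of 224 (exact 95% interval 40.0 to 8890, counting error only). The fitted difference was 6.49 ± 0.83 (SE, adjusted p = 0.0283), which depends on the offset used for zero counts and is no estimate of the fold. Treated libraries showed the same split, with 80 to 221 reads in each of 6 KO libraries and 0 or 1 in each of 6 WT libraries. The call was lost against WT B alone (adjusted p = 0.172). Of the other 26 measured genes that start within 500000 nt of Nelfb, 1 had both KO libraries above both WT libraries and 11 had both below, against 15.7% and 13.8% of all genes. Their differences from WT B ran from -0.52 to 0.51, with a median of -0.12.

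**Figure D2:**
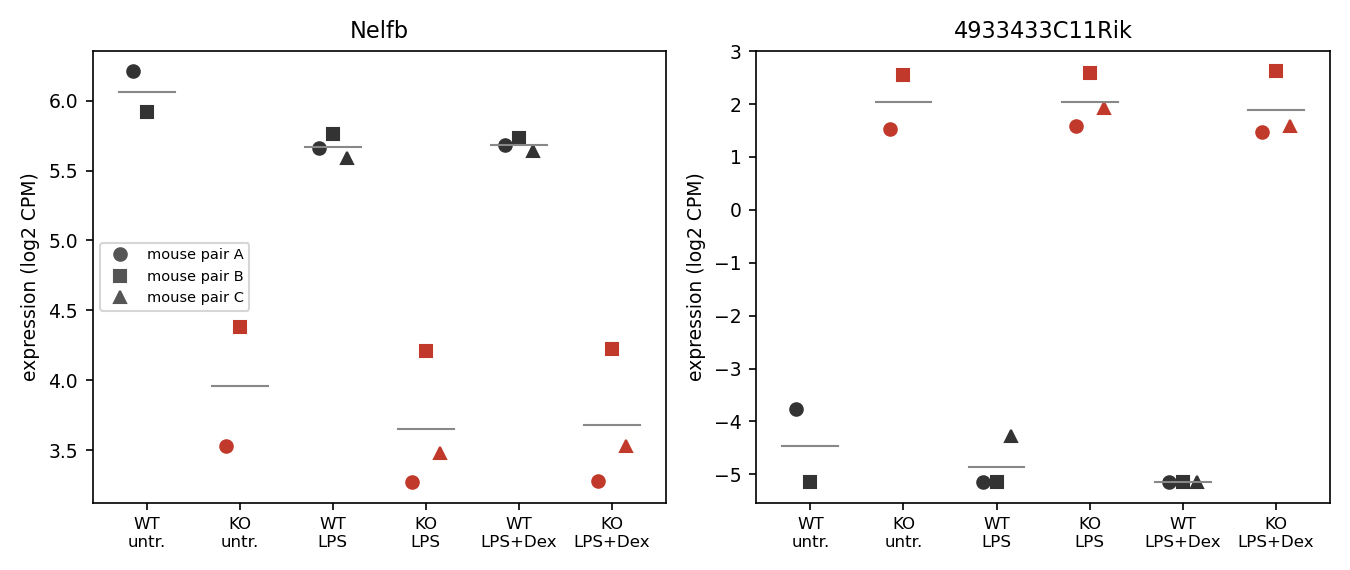
Expression (log2 CPM, vertical axis) of Nelfb and of 4933433C11Rik in the 16 libraries, by group, with WT in black, KO in red, a symbol for each mouse pair and a line at the group mean. KO libraries lie at 3.27 to 4.38 for Nelfb and at 1.48 and above for 4933433C11Rik, where WT libraries are at -3.77 or below.

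The other subunits of NELF and DSIF gave no call. Nelfa was at 4.37, 4.38, 4.34 and 4.32 in WT A, WT B, KO A and KO B. Nelfcd stood at 5.69, 4.80, 4.92 and 4.80, and Nelfe at 6.55, 4.91, 4.91 and 5.02. In Nelfe, which carries the RNA-binding domain of NELF, WT A was high and the other 3 libraries were alike. For the DSIF subunits, Supt5 was at 7.89, 7.48, 7.55 and 7.5 and Supt4a at 6.24, 4.84, 5.15 and 5.00. Against WT B these 5 genes differed by -0.06 to 0.23. Among 22 measured genes of elongation control (P-TEFb, 7SK, super elongation and PAF complexes, BET proteins) 0 passed, 4 had both KO libraries above both WT libraries and 2 had both below, against 15.7% and 13.8% of all genes. The median of that list was 0.04 against both WT libraries and 0.00 against WT B, beside 0.02 and 0.01 over all genes.

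Over all genes 0 were held against WT B at an adjusted p of 0.05 by limma, and 0 by voom on reads recovered from the table. With the replicate block the counts were 3 called over both WT libraries (4933433C11Rik and Sowahc higher, Nelfb lower) and 2 held (4933433C11Rik and Sowahc). With the mouse as a random effect they were 2 called and 2 held, Nelfb and 4933433C11Rik. At an unadjusted p of 0.05 with 1.5-fold, 345 genes were higher (3.59% of those tested) and 387 lower (4.03%) in KO. Of these 732 genes, 34 (4.64%) passed again without WT A, and 698 did not. The 698 genes differed from WT A by a median of 1.33 in size but from WT B by 0.19, and 60 of them had the opposite sign against WT B. Their longest transcripts had a median of 1847 nt for the lower and 4857 nt for the higher genes, against 3470 nt over all genes. The 34 genes, 18 higher and 16 lower, differed from WT A by a median of 0.91 and from WT B by 0.87. These sizes follow in large part from how the 698 and the 34 genes were chosen. Leaving out WT B instead of WT A gave 3911 calls at an adjusted p of 0.05 (2030 higher and 1881 lower).

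These 34 genes are described next. They were chosen after their values were seen, since the adjusted threshold held none, and their untreated differences are therefore given as a description. The libraries of mice WT C and KO C did not enter the untreated differences, but as part of the 16-library fit they contributed to the estimate of the spread behind the p-values. Under LPS, the difference between WT C and KO C had the same sign as in untreated cells for 32 of the 34 genes, against 57.0% of all genes, and under LPS + Dex for 33, against 63.2%. The exceptions under LPS were Mpp7 and Gprc5b. When the LPS and LPS + Dex libraries of each mouse were averaged and 3 KO mice compared with 3 WT mice, 26 of the 34 passed an unadjusted p of 0.05 in the same direction, against 8.45% of all genes. The averaged comparison includes mice A and B, which also gave the untreated libraries.

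**Figure D3:**
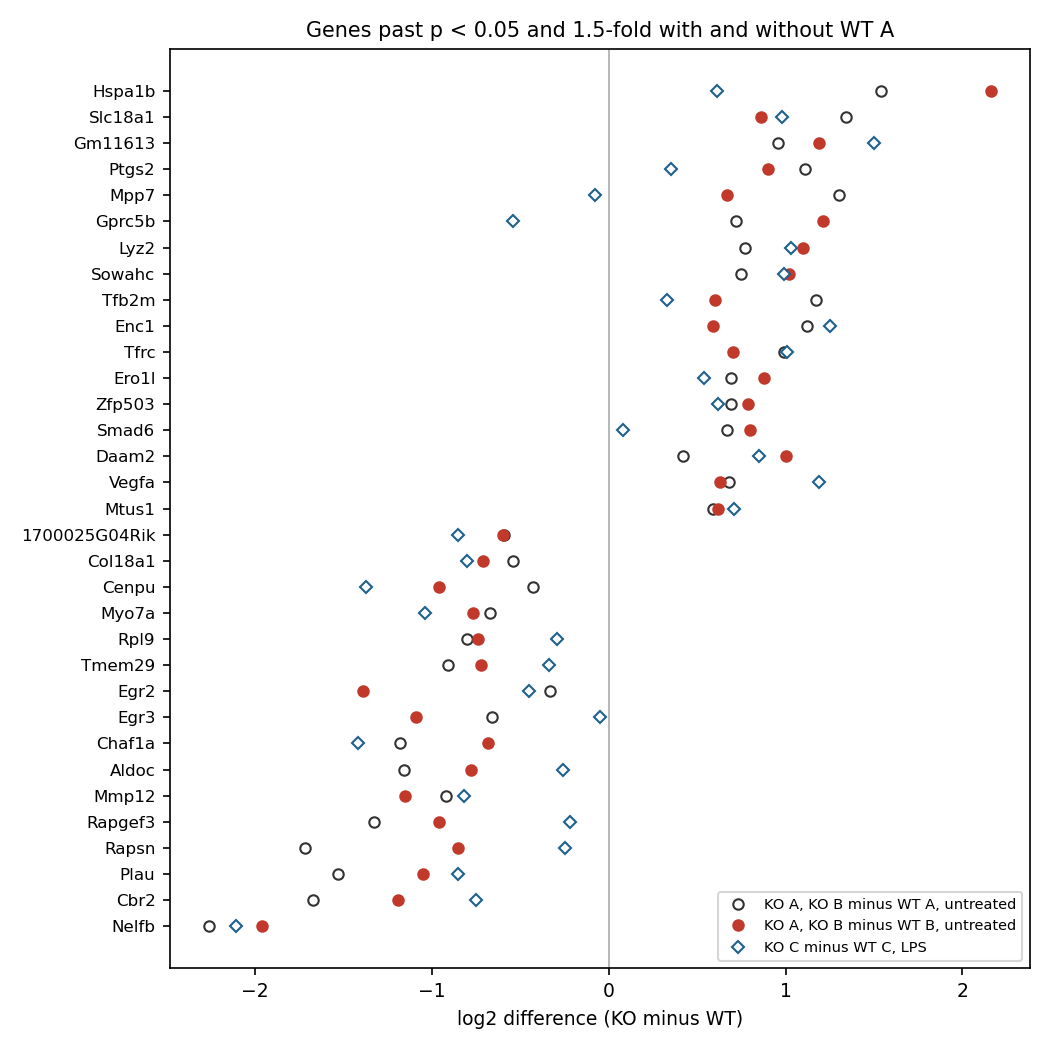
Log2 difference between KO and WT (horizontal axis) for 33 of the 34 genes, without 4933433C11Rik, which is off this scale. Open circles are untreated KO against WT A, filled circles untreated KO against WT B, and diamonds KO C against WT C under LPS. The diamonds lie on the side of the circles for all but Mpp7 and Gprc5b.

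Among the lower genes, Myo7a, an unconventional myosin needed in hair cells of the ear, varied least. It was at 5.90 in WT A, 6.00 in WT B, 5.22 in KO A and 5.23 in KO B. Its KO libraries lay well below the WT libraries, by 0.72 ± 0.11 (SE, adjusted p = 0.106). In treated cells WT lay between 6.05 and 6.27 and KO between 5.14 and 5.44, and there the difference passed the threshold under LPS (-0.95 ± 0.09, adjusted p = 0.000794) and under LPS + Dex (-0.86 ± 0.09, adjusted p = 0.00236), as 0.0312% of all genes did on the lower side in each treatment. It also passed with 1 averaged value per treated mouse (adjusted p = 0.0439), being the only lower gene called there (0.0104% of all genes).

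Among the lower genes, Plau encodes urokinase, which turns plasminogen into plasmin, and stood at 5.88 in WT A, 5.41 in WT B, 4.15 in KO A and 4.57 in KO B. Mmp12, the macrophage elastase, stood at 7.35, 7.58, 6.26 and 6.60 in the same order. Col18a1, a basement membrane collagen, stood at 6.20, 6.38, 5.50 and 5.82. In each of these 3 genes both KO libraries were below both WT libraries, by 1.29 ± 0.29, 1.04 ± 0.28 and 0.63 ± 0.18 (SE). Against WT B alone the differences were -1.05, -1.15 and -0.71, and between KO C and WT C under LPS they were -0.85, -0.82 and -0.80. None of the 3 passed an adjusted p of 0.05 under LPS or under LPS + Dex (the lowest was 0.0795, for Mmp12 under LPS + Dex).

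Cbr2, a carbonyl reductase, showed the largest difference among the lower genes after Nelfb, at 4.06 in WT A, 3.57 in WT B, 2.20 in KO A and 2.57 in KO B (-1.43 ± 0.30 SE, and -1.19 against WT B). Rapgef3, a cAMP-activated exchange factor for Rap GTPases, was at 3.57, 3.2, 2.06 and 2.42. Rapsn, which clusters acetylcholine receptors at the nerve-muscle junction, was at 3.37, 2.50, 1.44 and 1.85. Under LPS mouse pair C differed by -0.75 for Cbr2, -0.22 for Rapgef3 and -0.25 for Rapsn. Aldoc, an aldolase of glycolysis, stood at 4.82, 4.44, 4.06 and 3.26.

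A pair of zinc finger transcription factors of the early growth response family was lower too. Egr2 was at 1.92 in WT A, 2.98 in WT B, 1.30 in KO A and 1.88 in KO B, and Egr3 at -0.92, -0.49, -1.82 and -1.34. KO A and KO B were thus below WT A and WT B in both genes, narrowly so for KO B and WT A in Egr2. Every untreated value of Egr3 was negative on the log2 CPM scale, so its order rests on few reads. Under LPS the differences between KO and WT were -0.39 for Egr2 and -0.21 for Egr3, with an adjusted p of 1 for each. Egr1 of the same family stood at 2.12, 3.45, 2.70 and 3.52, without a consistent order.

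Chaf1a, the large subunit of a factor that loads histones onto newly made DNA, stood at 4.77, 4.28, 3.41 and 3.78. Cenpu, a centromere protein, stood at 1.64, 2.17, 1.02 and 1.39. Both serve dividing cells, and in mouse pair C under LPS they were lower in KO by a difference of -1.42 and -1.37. The remaining lower genes were Rpl9, Tmem29 and 1700025G04Rik. Rpl9 encodes a ribosomal protein and has processed copies in the genome that could share its reads. Chaf1a and Cenpu each overlap another measured gene on the opposite strand, and the counting is not stated to have used strand. Of these partners Ubxn6 differed by -0.62 and Primpol by 0.40.

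Among the higher genes Hspa1b, an inducible HSP70 chaperone, had the largest difference after 4933433C11Rik. It stood at 0.38 in WT A, -0.25 in WT B, 1.98 in KO A and 1.85 in KO B. Both KO libraries exceeded both WT libraries, by 1.85 ± 0.62 (SE) over both and by 2.16 against WT B. Hspa1a, its near-identical neighbour on the same chromosome, stood at -2.61, -2.39, -0.21 and -1.45 (difference 1.67), with few reads in the WT libraries. Unique reads may be split unevenly between these copies. In treated cells Hspa1b was higher in KO by 1.78 ± 0.51 under LPS and 2.10 ± 0.51 under LPS + Dex (SE, adjusted p = 0.225 and 0.127). In mice C alone the difference was smaller, at 0.61 under LPS and 1.16 under LPS + Dex. Most other chaperones showed smaller differences. Hspa8, the constitutive HSP70, was at 9.34, 9.34, 9.18 and 9.27, Hsph1 at 5.67, 5.25, 5.86 and 5.52, and Dnajb1 at 5.33, 4.91, 4.96 and 5.04. Of 20 measured chaperones 4 had both KO libraries above both WT libraries (20%, against 15.7% of all genes) and 3 had both below (15%, against 13.8%). The median difference of the list was 0.02.

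The upstream sequence of Hspa1b is shown because paused polymerase was first described at heat shock genes, whose promoters carry heat shock elements. It is the 250 nt before the annotated start (RefSeq, GRCm38.p6), at chr17:34959239-34959488 on the minus strand, printed in the direction of transcription. Capitals mark the single match to GAANNTTC, a heat shock element core that reads alike on both strands and was found in 4.87% of the 7699 measured genes with an entry.

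Hspa1b: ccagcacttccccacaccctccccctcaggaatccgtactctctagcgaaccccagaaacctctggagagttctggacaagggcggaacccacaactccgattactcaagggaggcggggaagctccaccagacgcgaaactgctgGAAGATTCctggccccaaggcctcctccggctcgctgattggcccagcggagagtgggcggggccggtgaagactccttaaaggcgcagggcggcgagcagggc

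Lyz2, lysozyme M, was at 4.63 in WT A, 4.31 in WT B, 5.42 in KO A and 5.38 in KO B. The KO libraries were close to each other and both exceeded both WT libraries, by 0.93 ± 0.28 (SE) and by 1.10 against WT B alone. Under LPS and LPS + Dex the differences were 1.16 and 1.30 (limma, adjusted p = 0.0963 and 0.0589). With 1 averaged value per treated mouse the adjusted p was 0.199, so the threshold was not passed. It was passed only with the pair as a block (adjusted p = 0.0402), where 0.208% of all genes passed on the higher side. Lyz1, a near-identical gene that can share its reads, stood at 6.30, 7.0, 5.74 and 6.49. Lyz2 is the locus that carries Cre, and the number of Cre copies in each mouse is not given in the sources used here, so an effect of NELF-B and a difference at this locus cannot be told apart.

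Tfrc, the transferrin receptor through which cells take up iron, was at 8.64 in WT A, 8.94 in WT B, 9.71 in KO A and 9.56 in KO B (0.84 ± 0.25 SE). Vegfa, the vascular growth factor, was at 6.28, 6.33, 7.34 and 6.58, and Ero1l, which makes disulphide bonds in the endoplasmic reticulum, at 6.15, 5.96, 7.18 and 6.49. In both of these genes KO A was well above the WT libraries and KO B slightly so. Ptgs2, the inducible cyclooxygenase of prostaglandin synthesis, stood at 1.08, 1.28, 2.50 and 1.88. In mouse pair C under LPS these 4 genes were higher in KO by 1.01 (Tfrc), 1.19 (Vegfa), 0.54 (Ero1l) and 0.35 (Ptgs2).

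Slc18a1, a vesicular monoamine transporter, was at 1.34, 1.81, 2.67 and 2.68, and the non-coding transcript Gm11613 at 2.89, 2.66, 3.99 and 3.71. Their differences of 1.10 ± 0.19 and 1.07 ± 0.20 (SE) were large beside their spread. Both passed the threshold in LPS-treated cells, with adjusted p of 0.0286 for Slc18a1 and 0.0188 for Gm11613 (0.114% of all genes passed there on the higher side). With 1 averaged value per treated mouse neither passed (limma, adjusted p = 0.199 for Slc18a1 and 0.107 for Gm11613). With the pair as a block these values were 0.0769 and 0.0699. Slc18a1 overlaps Atp6v1b2 on the opposite strand, which differed by 0.11 in untreated cells. Sowahc was at 5.05, 4.78, 6.12 and 5.48, and passed the threshold with the replicate block, over both WT libraries and without WT A. The other higher genes were Mpp7, Gprc5b, Tfb2m, Enc1, Zfp503, Smad6, Daam2 and Mtus1, with differences of 0.61 to 0.98. Smad6 is an inhibitor of BMP signalling and Tfb2m a mitochondrial transcription factor. Gprc5b was higher in untreated KO cells (1.31, 0.81, 2.12 and 1.93) and at -0.26 under LPS, and no gene passed an adjusted p of 0.05 in the test of untreated against LPS genotype differences (0 of 9614, limma).

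Genes of the cell cycle and DNA replication were the list of 10 or more genes with the largest share of members on the same side, against both WT libraries and against WT B alone. Of its 47 measured members 37 (78.7%) had both KO libraries below both WT libraries, against 13.8% of all genes, and 0 had both above, against 15.7%. None passed the adjusted threshold, and 17 were lower at an unadjusted p of 0.05 (7.44% of all genes were) and 0 higher (7.79% were). Against WT B alone 43 of 47 had both KO libraries below it, against 33.7% of all genes, and 0 above, against 36.5%. The median difference was -0.60 over both WT libraries, -0.86 against WT A and -0.34 against WT B, beside 0.02, 0.02 and 0.01 over all genes. By pair it was -0.90 for mice A and -0.31 for mice B. The summed level of the list was 1890 CPM in WT A, 1540 in WT B, 1120 in KO A and 1290 in KO B. In bulk RNA fewer cells in cycle and less of these RNAs per cell cannot be told apart.

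Members that act in DNA synthesis and in mitosis were among the 37. Of the MCM helicase that opens DNA for replication, Mcm5 was at 6.16 in WT A, 5.92 in WT B, 5.01 in KO A and 5.51 in KO B, and Mcm7 at 6.15, 5.53, 4.57 and 5.15. Ccnb1, the cyclin of mitosis, was at 4.30, 3.87, 3.30 and 3.36, and its kinase Cdk1 at 5.64, 5.23, 4.62 and 4.84. In all 4 of these genes both KO libraries lay below both WT libraries. Uhrf1, which helps to copy DNA methylation, was at 5.32, 5.4, 4.42 and 4.97. The proliferation marker Mki67 stood at 6.61, 6.19, 5.82 and 5.88.

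For some members much of the difference came from WT A. Birc5 (survivin) and Tk1 (thymidine kinase) had the largest differences of the list. Birc5 was at 5.60 in WT A but at 3.71, 3.42 and 3.40 in the other 3 libraries, and Tk1 at 4.87 against 3.81, 3.15 and 3.51. Ccnb2 stood at 4.96 in WT A and at 3.29, 3.46 and 3.2 in the others, so that the KO mean was 0.04 above WT B. Among D-type cyclins, which link growth signals to the cycle, Ccnd1 was higher in pair B than in pair A (4.82, 6.15, 4.89 and 5.92) and Ccnd2 highest in KO B (1.20, 1.66, 1.10 and 2.50). Correcting each library for transcript length gave 36 of the 47 genes with both KO libraries below both WT libraries (15.9% of all genes), and centring each library on its median gene gave 37 (14.3%).

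In mice C under LPS all 47 genes were lower in KO than in WT, against 48.4% of all genes, with a median of -1.48. Under LPS + Dex the median in mice C was -1.42. With the treated libraries of each mouse averaged, 41 of 47 were lower at an unadjusted p of 0.05, against 5.64% of all genes, and 0 passed an adjusted p of 0.05 with 1.5-fold. By pair the LPS medians were -0.97 for mice A and -0.34 for mice B. Pair B gave the smallest value in both untreated and LPS-treated cells.

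**Figure D4:**
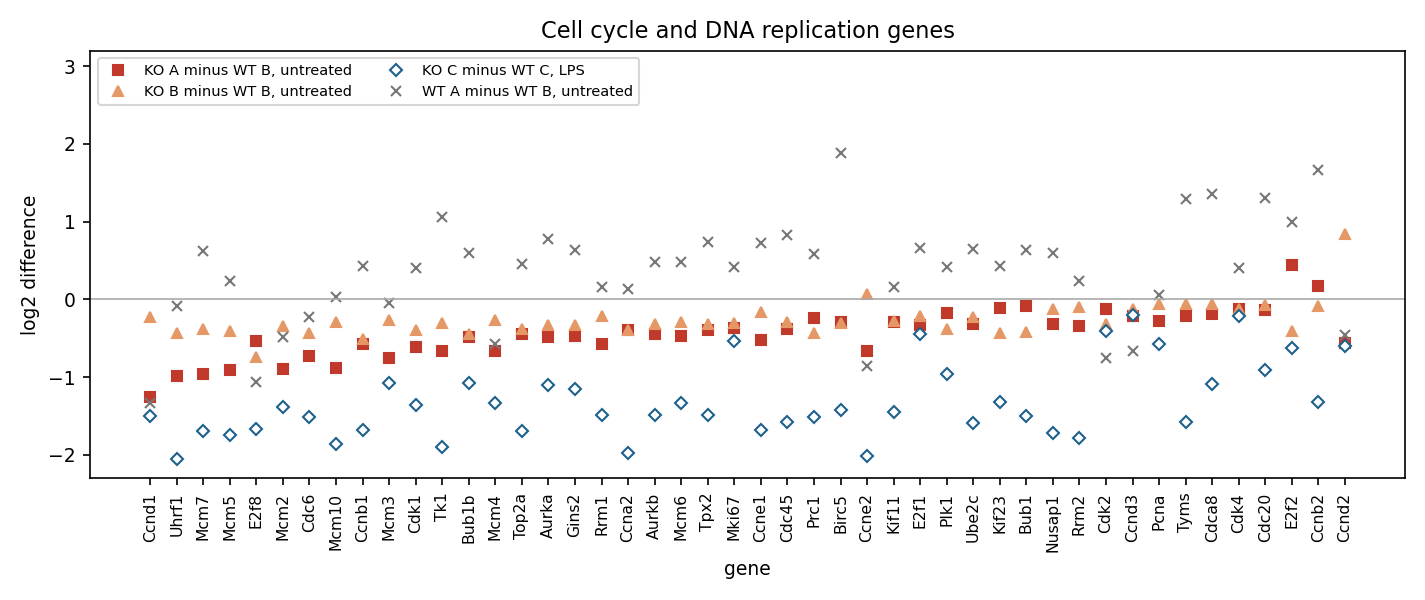
Log2 difference (vertical axis) for 46 of the 47 measured cell cycle and DNA replication genes, ordered by the difference of untreated KO from WT B. Squares and triangles are KO A and KO B against WT B, crosses WT A against WT B, and diamonds KO C against WT C under LPS. Both KO libraries lie below the zero line for 42 of these genes and the diamonds for all 46.

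The upstream sequences of 3 of these genes are shown, those with the widest gap between KO and WT libraries that held a searched motif. Each is the 250 nt before the annotated start in RefSeq (GRCm38.p6), in the direction of transcription. The motifs, in capitals, were the cell cycle homology region TTTGAA, the CCAAT box CCAAT and the E2F site forms TTCCCGC and TTGGCGC, all searched on both strands. Ccnb1 lies at chr13:100786487-100786736 on the minus strand, Bub1b at chr2:118597961-118598210 and Mcm5 at chr8:75109259-75109508, the latter genes on the plus strand. In Ccnb1 an E2F form and a CCAAT box overlap. Bub1b, a mitotic checkpoint kinase, was at 5.05, 4.45, 3.97 and 4.01 in WT A, WT B, KO A and KO B.

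Ccnb1: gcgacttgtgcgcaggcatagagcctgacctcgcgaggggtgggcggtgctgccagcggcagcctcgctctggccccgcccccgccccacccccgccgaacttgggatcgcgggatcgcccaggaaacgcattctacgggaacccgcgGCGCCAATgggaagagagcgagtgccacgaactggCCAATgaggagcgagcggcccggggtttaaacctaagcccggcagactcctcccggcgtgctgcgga
Bub1b: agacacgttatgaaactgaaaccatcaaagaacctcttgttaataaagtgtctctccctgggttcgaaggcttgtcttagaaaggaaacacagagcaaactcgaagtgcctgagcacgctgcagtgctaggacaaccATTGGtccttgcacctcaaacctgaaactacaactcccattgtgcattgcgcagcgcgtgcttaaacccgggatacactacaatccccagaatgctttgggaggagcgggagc
Mcm5: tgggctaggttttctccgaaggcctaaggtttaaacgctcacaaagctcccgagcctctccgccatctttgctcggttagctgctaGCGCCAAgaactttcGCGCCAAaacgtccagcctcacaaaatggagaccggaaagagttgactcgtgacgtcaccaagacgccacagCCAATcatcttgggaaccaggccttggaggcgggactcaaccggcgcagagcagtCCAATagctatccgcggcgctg

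Over the 38 list members with an entry, CCAAT was present in 29 (76.3%, against 36.5% of the 7699 measured genes with an entry) and TTTGAA in 10 (26.3%, against 10.2%). The E2F forms were present in 5 (13.2%, against 7.20%) and 6 (15.8%, against 3.84%). Of the 32 members whose KO libraries were both below both WT libraries, 24 held CCAAT and 7 held TTTGAA. These shares were no higher than those of the 38 list members. A match is a stretch of letters and not a shown binding site.

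Replication-dependent histone genes, whose messages normally lack a poly(A) tail, were represented by 4 genes in these poly(A)-selected libraries. Hist1h1c was at 6.46 in WT A, 6.93 in WT B, 7.73 in KO A and 7.84 in KO B, and Hist1h2bc at 6.08, 5.72, 6.28 and 6.38. In both genes KO exceeded WT, by 1.09 ± 0.36 and 0.44 ± 0.15 (SE, adjusted p = 0.324 each). Hist1h4i was at 3.33, 2.49, 3.2 and 3.38 and Hist2h2be at 2.35, 2.05, 2.75 and 2.01. The median of the 4 was 0.41 over both WT libraries and 0.71 against WT B, and all 4 were higher in KO in mice C under LPS, with a median of 0.59. The median of these 4 genes was thus of the opposite sign to that of the cell cycle and DNA replication list. Poly(A) selection largely misses messages without a tail, so total histone RNA was not measured.

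Ribosomal protein and respiratory chain genes, many of which have short transcripts, lay far below WT A and close to WT B. Of 77 cytosolic ribosomal protein genes 29 were lower at an unadjusted p of 0.05 with 1.5-fold and 0 higher, against 4.03% and 3.59% of all genes. The list's median was -1.25 against WT A and -0.01 against WT B, and 21 of its genes had both KO libraries above WT B and 21 both below, against 36.5% and 33.7% of all genes. Rpl38 was at 8.41 in WT A and at 5.98, 5.91 and 6.13 in WT B, KO A and KO B. The 71 subunits of respiratory complexes I, III, IV and V had a median of -1.21 against WT A and 0.16 against WT B, where 57 of 71 had both KO libraries above it, against 36.5% of all genes. Ndufa2 of complex I was at 8.70 in WT A and at 5.90, 6.02 and 5.96 in the others. In mice C the medians of these lists were 0.00 and 0.04 under LPS and -0.06 and 0.00 under LPS + Dex. Their counts over both WT libraries therefore rest on WT A.

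Immediate-early genes, the first to answer a stimulus, gave a median of 0.31 over both WT libraries, 0.63 against WT A and 0.01 against WT B. Of 30 measured, 10 had both KO libraries above both WT libraries (33.3%, against 15.7% of all genes) and 2 had both below, Egr2 and Egr3. Against WT B 12 were above and 10 below, against 36.5% and 33.7% of all genes. Fos stood at 5.76 in WT A, 6.67 in WT B, 6.50 in KO A and 6.50 in KO B, and Egr1 differed likewise between the WT libraries. A few members were higher in KO than in either WT library. Junb stood at 6.79, 6.80, 7.56 and 7.59, Ier5 at 5.65, 5.74, 6.17 and 6.47, and Nr4a2, an orphan nuclear receptor, at 0.69, 1.40, 2.33 and 1.85. None passed an adjusted p of 0.05. In mice C under LPS 26 of the 30 were higher in KO, against 51.5% of all genes, with a median of 0.55.

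The 15 growth factor feedback regulators, which damp receptor signalling, had a median of 0.15 over both WT libraries and 0.03 against WT B. Errfi1, an inhibitor of the EGF receptor, stood at 3.31, 3.66, 4.18 and 4.0, with both KO libraries above both WT libraries. Phlda1 stood at 1.28, 1.52, 0.79 and 1.75 without an order by genotype. Under LPS Phlda1 was higher in KO C by 1.34, and with 1 averaged value per treated mouse the difference was 1.68. The inflammatory cytokines and chemokines, 24 measured, had a median of 0.08 over both WT libraries and -0.10 against WT B. Of these 3 had both KO libraries above both WT libraries and 1 had both below, against 15.7% and 13.8% of all genes. The interferon-inducible chemokine Cxcl10 stood at -0.80, 0.05, 1.10 and 0.38.

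Interferon-stimulated genes also divided by WT library. Of 33 measured, 9 had both KO libraries above both WT libraries (27.3%, against 15.7% of all genes) and 4 both below (12.1%, against 13.8%). The median was 0.52 against WT A and 0.04 against WT B. Igtp, an interferon-induced GTPase, stood at 0.04 in WT A and at 3.22, 2.48 and 3.24 in WT B, KO A and KO B. In mice C under LPS 32 of 33 were lower in KO, against 48.4% of all genes, with a median of -1.38, while the LPS medians of pairs A and B were 0.25 and 0.62. Mice C had no untreated library among the 16 of the series.

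Genes of the hypoxia response and glycolysis were mostly above WT B in KO. Of 28 measured, 21 had both KO libraries above WT B (36.5% of all genes did) and 4 below (33.7% did). Against WT A 10 were above and 16 below, against 45.9% and 44.4% of all genes. The median was 0.22 against WT B and -0.22 against WT A. In mice C under LPS 14 were higher in KO and 14 lower, with a median of 0.03. Besides Vegfa and Ero1l, Bnip3 stood at 5.03, 5.00, 5.63 and 5.31. Egln3, which marks the hypoxia factor for breakdown, stood at 3.38, 2.00, 3.86 and 3.07. Aldoc of the same list was lower in KO, by a difference of -0.97 over both WT libraries. NRF2 targets were above WT B in both KO libraries for 14 of 19 genes (36.5% of all genes), with a median of 0.24, and below WT A for 12 of 19 (44.4% of all genes had both KO libraries below WT A). Gclc, which sets the rate of glutathione synthesis, stood above both WT libraries in both KO libraries, at 4.99, 5.61, 6.24 and 6.15. Sterol synthesis and uptake genes had both KO libraries below WT B for 18 of 20 genes (33.7% of all genes), with a median of -0.32, but above WT A for 15 of 20 (45.9% of all genes were), with a median of 0.69. Mvk, mevalonate kinase, was below both, at 4.59, 3.90, 3.43 and 3.68. In mice C under LPS 18 of the 20 sterol genes were higher in KO, against 51.5% of all genes, with a median of 0.22.

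The remaining lists lay close to all genes against WT B. Medians over both WT libraries and against WT B were 0.12 and 0.01 for 22 p53 targets, -0.34 and 0.01 for 21 ATF4 targets, 0.08 and 0.11 for 10 LXR targets and -0.14 and 0.10 for 36 lysosome genes. The ATF4 target Phgdh, an enzyme of serine synthesis, stood at 3.86 in WT A and at 1.36, 0.75 and 1.61 in the others. In mice C under LPS 18 ATF4 targets were lower in KO and 3 higher, against 48.4% and 51.5% of all genes. Their median there was -0.51, and Phgdh differed by -2.01. The LXR target Mylip, which sends the LDL receptor to breakdown, stood at 5.36, 6.31, 6.90 and 6.84, above both WT libraries in both KO libraries.

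**Figure D5:**
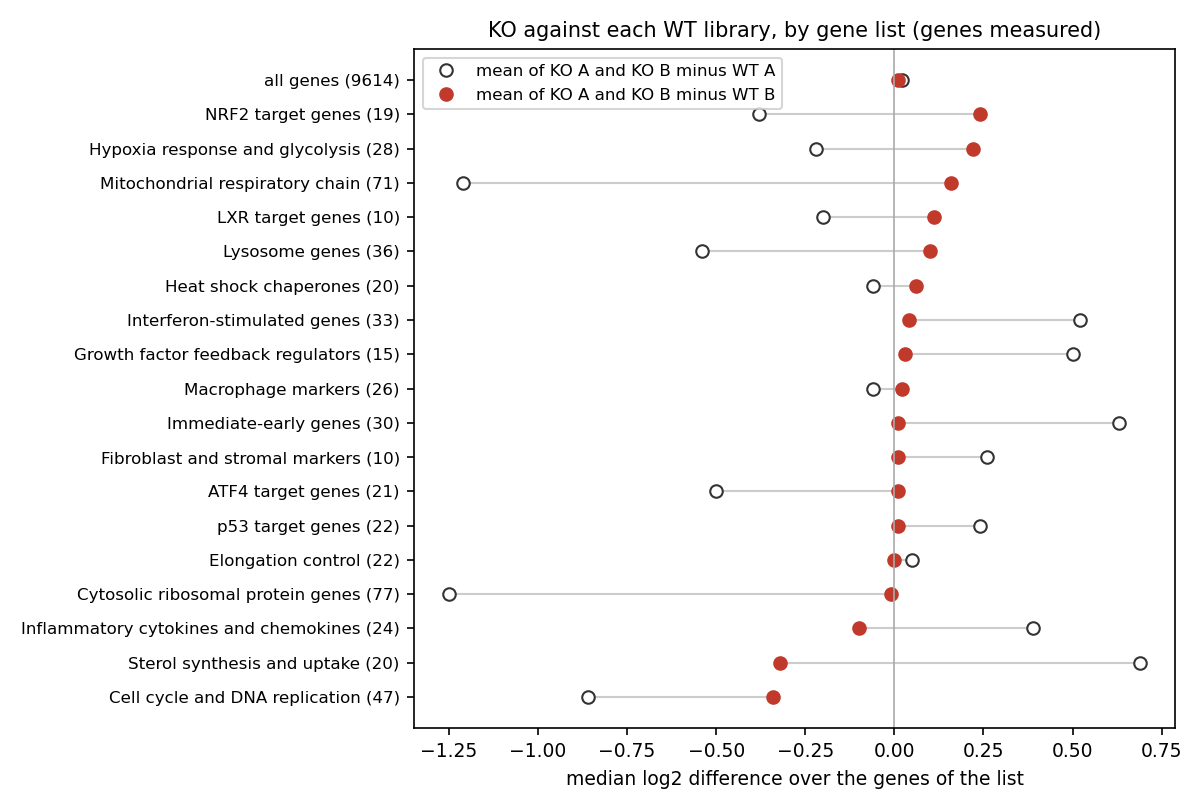
Median log2 difference (horizontal axis) of the mean of KO A and KO B from WT A (open circles) and from WT B (filled circles) for each gene list with 10 or more measured genes, and for all genes. Filled circles lie between -0.10 and 0.24 except for sterol synthesis (-0.32) and the cell cycle (-0.34), while open circles spread from -1.25 to 0.69.

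The cells carried the markers of macrophages in both genotypes. Csf1r, the receptor for the growth factor of macrophages, was at 11.36 in WT A, 11.70 in WT B, 11.91 in KO A and 11.58 in KO B. Cd68 was at 10.89, 10.03, 10.63 and 10.05, and Emr1 (F4/80) at 10.96, 12.44, 12.31 and 12.42. Of 26 measured macrophage markers 5 had both KO libraries above both WT libraries and 4 both below, against 15.7% and 13.8% of all genes, with a median of 0.02 against WT B. The efferocytosis receptor Mertk stood at 6.22, 7.32, 7.81 and 7.49. The complement gene C1qa stood at 10.26, 10.02, 9.37 and 9.46. None of these passed an adjusted p of 0.05.

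Markers of other cells were few and did not order by genotype as a list. Of 15 neutrophil markers 4 were in the table, of 7 monocyte markers 5, of 13 lymphocyte markers 2 and of 9 mast cell markers 0, and genes outside the table were not analysed here. Neutrophil markers summed to 186, 247, 248 and 249 CPM in WT A, WT B, KO A and KO B, and monocyte markers to 27.6, 28.3, 29.4 and 28.0. Fibroblast markers summed to 140, 205, 187 and 205 CPM, with Col1a2 at 4.04, 5.21, 5.03 and 5.27. Lymphocyte markers, Cd4 and Cd79b, summed to 62.5, 94.8, 24.3 and 71.9. Erythroid and platelet markers summed to 238, 250, 93.8 and 394 CPM, mostly Pf4, and were highest in KO B and lowest in KO A. Dendritic cell markers summed to 85.3 and 52.8 CPM in WT A and KO A but to 575 and 592 in WT B and KO B. Among these H2-Ab1, an MHC class II chain, stood at 3.85, 5.86, 3.02 and 5.81, so that its level followed the mouse pair in both genotypes. Itgax did not, at 4.09, 4.22, 2.80 and 3.48. It was the 1 of 6 measured dendritic markers with both KO libraries below both WT libraries (13.8% of all genes). The part of these marker differences in the genotype values was not tested.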

How the data were processed

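Per the labels, RNA of each mouse's BMDM was poly(A)-enriched and sequenced in paired reads. The authors aligned them in CLC Bio Genomic Workbench (mm10), kept unique reads in exons, normalised by a weighted trimmed mean in edgeR and deposited the log2 CPM of 9614 genes. Their filter is not given in the sources used here, and their 18 columns of p-values and FDR were not used. Whole reads were recovered for 100.0% of values under 3 CPM (tolerance 0.1 read), at 25000000 to 49700000 reads per library.

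The log2 values were fitted in limma 3.58.1 (R 4.3.3; lmFit, eBayes with trend, 6 group means, 16 libraries) without further filter, and p-values were adjusted over all genes by the Benjamini-Hochberg method. An exact permutation test of 2 against 2 libraries cannot go below 0.333. Same-lettered WT and KO mice deviated together (r = 0.44, 0.68 and 0.68 under LPS, 0.35 untreated for pair A), so the letter served as a replicate block. Libraries of 1 mouse count as independent except where the mouse is a random effect. Positions are GENCODE vM21 (GRCm38), with transcript lengths for 9571 genes. The scripts were tested on simulated data.

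The rule for named genes took NELF and DSIF subunits, the 12 largest held rises and falls (none existed) and members of each list. Because it named no held gene, the 34 genes past the unadjusted threshold in both fits were added after their values were seen. The comparison and lists were chosen with earlier results of these data known. Alternatives added after seeing the data were list medians and counts under other scalings and libraries, and averages of the treated libraries per mouse. Some genes of the lists are counted but not reported here by name.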

Additional observations from a re-analysis of the deposited data

Results flagged for a closer look

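The genotype difference of the 26 macrophage markers as a list had opposite signs in the pairs measured untreated (A and B) and under LPS (A, B and C) when each pair was summarised by its median. The list medians were -0.02 and -0.04 in untreated pairs A and B (mean -0.03) and 0.14, 0.03 and 0.09 in LPS-treated pairs A, B and C. Over both WT libraries the untreated median was 0.15 and against WT B 0.02, the same sign as the LPS median of 0.06, so the opposite signs hold for the pair medians only. This contrast between treatments was not tested, and the untreated differences of single markers over both WT libraries ran from -0.74 to 0.93.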

How the results depend on the processing

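The count of genes called over both WT libraries (1) was 0 with only the 4 untreated libraries, with array weights, with log2(CPM + 1) and with a filter on mean log2 CPM above 1. It was 3 with the replicate block, in all 16 and in the 4 untreated libraries, 2 with the mouse as a random effect, and 732 at an unadjusted p of 0.05. Leaving out 1 library gave 0 to 3911 calls, 3911 without WT B and 0 without WT A, KO A or KO B. The count held against WT B (0) was 2 with the replicate block, 2 with the mouse as a random effect and 34 at an unadjusted p of 0.05. The count of 34 was made without the block and was not repeated with it. Median centring, length correction and voom gave 1 call and 0 held. Nelfb kept its direction in every alternative (-2.54 to -1.68), as did 4933433C11Rik where it was tested (2.29 to 7.19). The number of cell cycle genes with both KO libraries below the WT libraries was 36 to 37 under the scalings and 39 to 43 against a single WT library. With 2 libraries per genotype, 1 of them apart in its length pattern, values of short and long transcripts over both WT libraries are limited by WT A, and low-count genes by depth.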
